A study of Mus musculus with 8 samples.

Results

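Cytochrome c oxidase, complex IV of the respiratory chain, was examined through 38 nuclear genes: its structural subunits with their tissue isoforms, its assembly factors, the supercomplex factor Cox7a2l and the electron donor Cycs. The genes were listed by name and function with earlier results of these data known, and all 38 were found among the 31053 gene identifiers of the count table. RNA was taken from brown adipose tissue (BAT), the thermogenic fat depot, of C57BL6/J mice labelled as 8 weeks old, and was measured as 4 WT and 4 Cd36KO libraries of bulk digital mRNA-seq. Cd36 encodes a scavenger receptor for lipids. The labels give the genotype as Cd36KO and name no driver. The study describes a germline knockout as well as mice in which a floxed Cd36 was deleted by Csf1r-Cre, a driver of the macrophage lineage, and credits its BAT transcriptome to the latter. A figure legend of the study gives the age on the label, whereas its methods have the macrophage-specific mice killed when older. No treatment or temperature is given in the labels for either group. The study's methods describe its mice as male and have tissues harvested after a fast. The labels also name the stromal vascular fraction as the cell type, but the mature adipocyte genes Adipoq and Plin1 held at least 2458 and 1450 normalized counts in every library, so the RNA was not that of a stromal fraction free of adipocytes. The study counts its replicates as mice, while the labels and count columns give library numbers and name no animal. The p-values measure the spread between these libraries. In the table, 1 count column of the Cd36KO group carries no replicate number and is called the unnumbered Cd36KO library here.

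Complex IV takes electrons from cytochrome c, passes them to oxygen and pumps protons across the inner mitochondrial membrane. Its catalytic core is encoded by the mitochondrial genome and carries heme a and copper, whereas the surrounding subunits come from nuclear genes and several of them exist as a ubiquitous and a tissue isoform. Assembly factors bring the core subunits into the membrane, make and insert heme a and hand over copper. In brown fat the proton gradient built by the chain is spent as heat through UCP1, and this tissue expresses the isoforms Cox7a1 and Cox8b, which are otherwise typical of heart and skeletal muscle.

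Total counts ranged from 2679785 to 4097953 per library. Cd36 itself held 2796, 2958, 3505 and 2412 normalized counts in WT 1 to 4, and 1926, 2109, 2384 and 1930 in the unnumbered Cd36KO library and Cd36KO 2 to 4. All 4 Cd36KO values were lower, but the gene kept 0.716 of the WT level (log2 fold change -0.48, SE 0.16) and missed the threshold (DESeq2 adjusted p = 0.0602; exact two-sided permutation p = 0.0286). It passed in 3 of 18 alternatives: with the muscle score as a covariate (adjusted p = 0.0321), without WT 4 (0.00611) and with total-count scaling (0.0453). Libraries differed in tissue makeup. The summed normalized count of 18 skeletal muscle markers was 83585, 14546, 1084 and 14570 in WT 1 to 4 and 10001, 205, 185 and 2325 in the Cd36KO libraries, so WT 1 stood apart, and it also had 6.53% of its counts on Gm42418 against 0.566% to 2.17% elsewhere. The summed count of the 8 white fat markers was 592 in WT 1, between 3847 and 4773 in WT 2 to 4 and between 526 and 951 in the Cd36KO libraries. Of 8 brown adipocyte markers, Ucp1 and Cidea rose in DESeq2 (edgeR adjusted p = 0.126 and 0.0749), and the other 6, with Zic1 at a log2 fold change of 0.00, did not pass. The median log2 fold change of the 8 was 0.8, with 5 at an unadjusted p under 0.05 in DESeq2 and 5 in edgeR. The summed count of the 8, most of it from Ucp1 and Cidea, was 13000 to 16858 in WT and 24240 to 32082 in Cd36KO. Of the white fat markers 4 were tested and 3 fell (Lep, Hoxc8 and Nnat), while Hoxc10, Tcf21 and Wt1 had no count. Of 9 macrophage markers tested, Cd163 fell in DESeq2 (edgeR adjusted p = 0.110). All 6 general adipocyte markers had log2 fold changes below 0, with a median of -0.38, and Fabp4 was lower in every Cd36KO library. None of these 6, of 6 endothelial and of 10 pericyte and smooth muscle markers passed in DESeq2, with 2, 0 and 2 at an unadjusted p under 0.05 and 2, 1 and 3 in edgeR. In bulk tissue, fewer cells of a type and less RNA per cell cannot be told apart, and the part that these differences had in the results that follow was not tested unless a value is given.

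Complex IV genes were on balance higher in Cd36KO. Of the 35 members that received an adjusted p, 6 rose and none fell at an adjusted p under 0.05 in DESeq2, which is 17.1% against 1.42% of all 9617 genes tested that were called higher and 1.53% that were called lower. The 6 were Cycs, Cox7a2, Cox7a1, Cox7a2l, Cox8b and Cox14, with rises of 1.36- to 1.61-fold. The log2 fold change was above 0 for 29 of the 35, with a median of 0.40 against -0.01 over all genes, and 17 had an unadjusted p under 0.05, of which Cmc1 was lower, against 1498 of all 9617 genes. All 4 Cd36KO values lay above all 4 WT values for 8 members, against 4.84% of all genes, and below them for 1 member, Cmc1, against 3.93%. The count of calls depended on the test and on single libraries: the edgeR quasi-likelihood test and limma called none of the members, although 17 and 15 of them had an unadjusted p under 0.05 in edgeR (Cmc1 and Cox6a2 lower) and limma, and limma called 8 genes of the whole table. In edgeR, 0.143% of 9793 genes were called and 16.1% had an unadjusted p under 0.05. The whole table had 284 calls with all 8 libraries. Member calls numbered 2 without WT 1 (Cox8b and Cycs; 345 genes in all), 1 without WT 3 (Cycs; 140 in all) and 13 without WT 4 (498 in all). The 13 called without WT 4 were the main 6 and Cox5a, Cox6a1, Cox6b1, Cox6c, Cox7b, Cox8a and Cox19. Without the unnumbered Cd36KO library 1 member rose (Cycs) and 1 fell (Cox6a2), with 113 genes called in all. None were made, against 262 in all, in the 6 libraries left when WT 1 and the unnumbered Cd36KO library, the most muscle-rich of each group, were both left out, where the median was 0.30 over the same 35 members and 11 of the 37 then tested had an unadjusted p under 0.05.

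**Figure D1:**
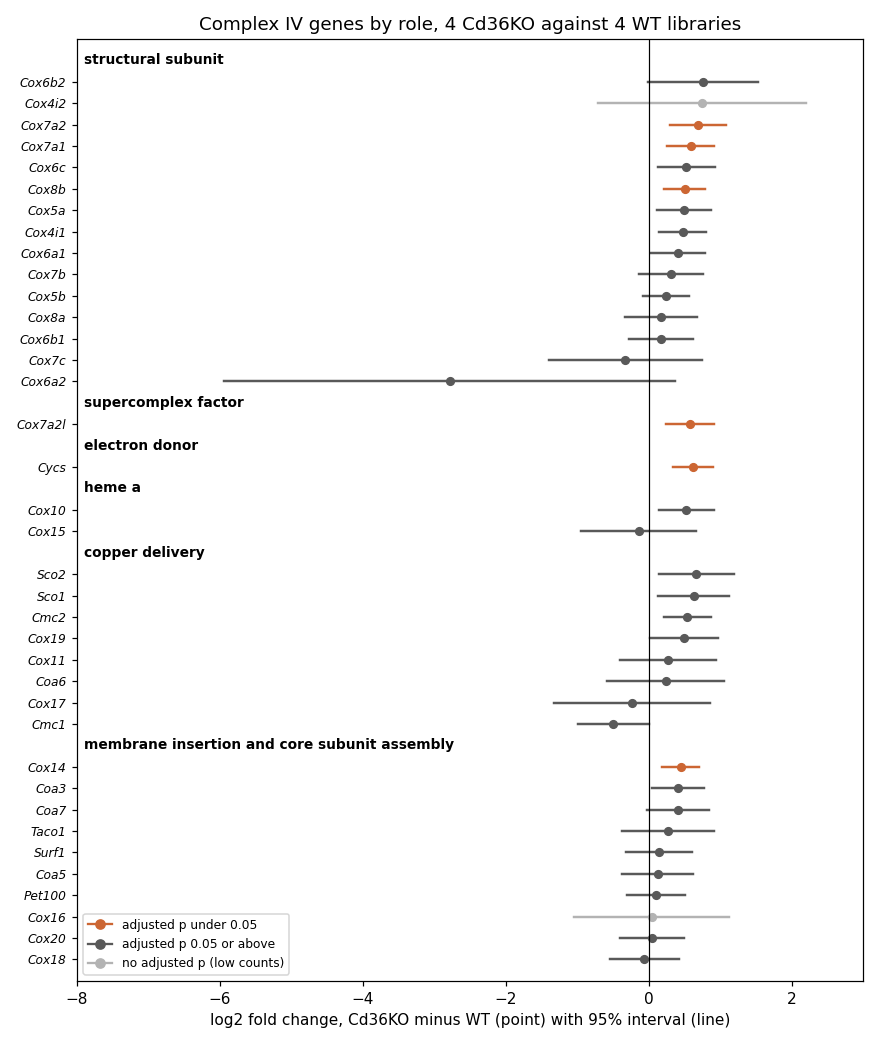
Log2 fold change of each complex IV gene with a count, Cd36KO minus WT (x axis), grouped by role; points are DESeq2 estimates and lines their 95% intervals, 4 libraries a group. The 6 orange genes passed an adjusted p under 0.05 and all lie to the right of 0, whereas Cox6a2 lies far to the left with an interval that crosses 0.

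The members differed in how well they were measured. Pet117 had no count in any library; its exons lie wholly within those of Kat14 in the annotation. Cox4i2 and Cox16 had mean normalized counts under 10 in each group and received no adjusted p. Among the other members, Cox6a2 reached down to 1.02 normalized counts in a library, Coa6 held 8.90 to 22.1, and Cox6c held 6500 to 15350. Exons of Cox20 overlapped those of Hnrnpu over 91.1% of their length, and those of Pet100 and Cox11 overlapped another gene over 52.6% and 48.3%, in each case on the opposite strand. Exons of Sco2 overlapped Tymp on the same strand over 68.3% and Ncaph2 on the opposite strand over 66.2%, and those of Cox16 overlapped Gm20498 on the same strand over 56.8%. The strand setting of the counting is not stated and would not separate genes on the same strand, so the values of these members are uncertain.

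Cycs, which encodes the cytochrome c that hands electrons to complex IV, was the member with the lowest adjusted p. It held 549, 610, 585 and 650 normalized counts in WT 1 to 4 and 994, 768, 922 and 975 in the unnumbered Cd36KO library and Cd36KO 2 to 4. Every Cd36KO library was above every WT library. The means were 598 ± 42.5 and 915 ± 103 (SD, n = 4 each), a rise of 1.53-fold (95% interval 1.26 to 1.86; DESeq2 adjusted p = 0.00350). Cycs passed in each of the 8 fits that left out 1 library, and it was the sole member called with the muscle score as a covariate (adjusted p = 0.0407). Without WT 1 and the unnumbered Cd36KO library together it rose by 0.53 on the log2 scale and missed the threshold (DESeq2 adjusted p = 0.0666).

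**Figure D2:**
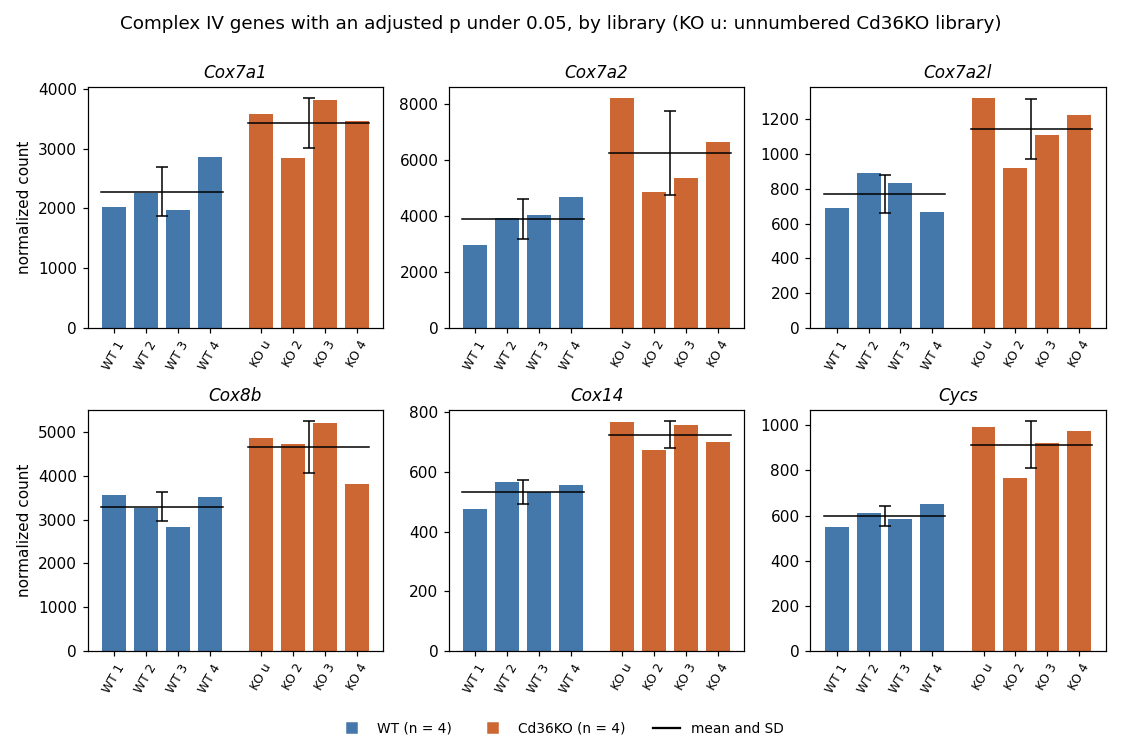
Normalized counts (y axis, from 0) of the 6 complex IV genes with an adjusted p under 0.05 in each of the 4 WT and 4 Cd36KO libraries; black lines give mean and SD. Cd36KO bars stand above all WT bars for every gene but Cox7a1, where WT 4 at 2870 slightly exceeds Cd36KO 2 at 2838.

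Among the 15 structural subunits, the nuclear-encoded shell of the enzyme, 14 received an adjusted p. Of these, 3 rose, none fell, and the median log2 fold change was 0.44. Their summed normalized count was 36972 to 58698 in WT and 51611 to 64140 in Cd36KO. The highest WT value came from WT 4, which was the highest WT library for 22 of the 35 members tested, and the lowest came from WT 1, the lowest for 16. WT 4 exceeded the Cd36KO mean for 14 of the 35 members.

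Cox7a1 and Cox7a2 are the muscle and brown fat isoform and the ubiquitous isoform of the same small subunit. Cox7a1 held 2025, 2261, 1976 and 2870 normalized counts in WT 1 to 4 and 3579, 2838, 3824 and 3462 in the Cd36KO libraries, in the order given above. It rose by 0.59 on the log2 scale (SE 0.17; fold interval 1.20 to 1.88; DESeq2 adjusted p = 0.0273), although WT 4 lay just above Cd36KO 2. Cox7a2 held 2962, 3918, 4055 and 4690 in WT and 8221, 4847, 5380 and 6651 in Cd36KO. The unnumbered Cd36KO library was the highest and no value overlapped. Cox7a2 rose 1.61-fold (95% interval 1.22 to 2.11; DESeq2 adjusted p = 0.0332). Its log2 fold change of 0.68 was 1.28 with the white fat score as a covariate (adjusted p = 0.000156) and 0.42 without WT 1 and the unnumbered Cd36KO library together (adjusted p = 0.267). The white fat score is the mean log2 CPM of 4 of the 8 white fat markers. It was 7.30 to 7.67 in WT 2 to 4, 4.27 to 5.18 in Cd36KO and 5.11 in WT 1. The score thus nearly follows genotype, and the fold change of that fit depends heavily on WT 1. Without WT 1 the adjusted p became 0.0582 for Cox7a1 and 0.0625 for Cox7a2, and without the unnumbered Cd36KO library 0.122 and 0.189.

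Cox8b and Cox8a are the corresponding isoforms of the smallest nuclear subunit, Cox8b being the one of muscle and brown fat. Cox8b held 3567, 3257, 2832 and 3513 normalized counts in WT and 4864, 4735, 5199 and 3820 in Cd36KO. Its groups did not overlap, and it rose 1.41-fold (95% interval 1.16 to 1.73; DESeq2 adjusted p = 0.0337; 0.0269 without WT 1 and 0.161 without the unnumbered Cd36KO library). Cox8a held 1579, 2251, 1901 and 4046 in WT and 3112, 2622, 2450 and 2789 in Cd36KO. WT 4 was higher than every Cd36KO library, and the log2 fold change was 0.17 (SE 0.25, DESeq2 adjusted p = 0.821). Without WT 4 it was 0.52 (adjusted p = 0.0279), and without WT 1 it was 0.0 (adjusted p = 0.997). Muscle also expresses Cox7a1 and Cox8b. WT 1, the most muscle-rich library, had the highest Cox8b count of the WT libraries and their second lowest Cox7a1 count, and the share of the tissue isoform in its pair was the highest in WT for both, at 69.3% and 40.6%.

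The promoters of these isoforms, and that of Cycs, are shown because isoforms that encode the same subunit and were both measured in every library differ in the sequence around their start. They run from 250 bases before to 50 bases after the RefSeq gene start on build GRCm38.p6 and are printed 5′ to 3′ on the strand of the gene. Cox7a1 is at chr7:30183921-30184220 (plus strand), Cox7a2 at chr9:79759804-79760103 (minus strand), Cox8b at chr7:140900397-140900696 (minus strand), Cox8a at chr19:7217567-7217866 (minus strand) and Cycs at chr6:50566520-50566819 (minus strand). Capitals mark exact matches, on either strand, to CCGGAAG, a core recognised by ETS factors such as GABP, or to GCATGCGC, a core recognised by NRF1.
Cox7a1: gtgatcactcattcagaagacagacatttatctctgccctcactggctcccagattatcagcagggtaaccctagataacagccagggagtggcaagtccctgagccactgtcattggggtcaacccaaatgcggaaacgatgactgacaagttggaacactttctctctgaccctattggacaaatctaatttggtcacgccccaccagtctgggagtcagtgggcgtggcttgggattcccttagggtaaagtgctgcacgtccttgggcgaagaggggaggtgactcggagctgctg
Cox7a2: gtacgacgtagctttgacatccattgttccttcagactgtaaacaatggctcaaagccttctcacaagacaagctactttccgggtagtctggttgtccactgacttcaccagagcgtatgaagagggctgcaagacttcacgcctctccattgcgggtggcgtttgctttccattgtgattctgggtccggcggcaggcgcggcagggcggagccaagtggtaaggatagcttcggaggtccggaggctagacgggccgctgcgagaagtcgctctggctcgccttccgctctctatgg
Cox8b: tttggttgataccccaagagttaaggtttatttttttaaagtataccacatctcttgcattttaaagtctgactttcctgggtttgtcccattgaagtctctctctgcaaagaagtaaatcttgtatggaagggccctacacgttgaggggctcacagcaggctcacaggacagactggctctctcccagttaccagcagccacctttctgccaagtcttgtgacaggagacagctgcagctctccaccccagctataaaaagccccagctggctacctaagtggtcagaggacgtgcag
Cox8a: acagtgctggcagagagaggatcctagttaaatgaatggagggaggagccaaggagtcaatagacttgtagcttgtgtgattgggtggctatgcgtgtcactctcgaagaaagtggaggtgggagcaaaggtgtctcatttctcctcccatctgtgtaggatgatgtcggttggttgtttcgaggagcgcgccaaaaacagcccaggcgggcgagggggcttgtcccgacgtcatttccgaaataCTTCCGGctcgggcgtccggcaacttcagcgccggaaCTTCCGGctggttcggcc
Cycs: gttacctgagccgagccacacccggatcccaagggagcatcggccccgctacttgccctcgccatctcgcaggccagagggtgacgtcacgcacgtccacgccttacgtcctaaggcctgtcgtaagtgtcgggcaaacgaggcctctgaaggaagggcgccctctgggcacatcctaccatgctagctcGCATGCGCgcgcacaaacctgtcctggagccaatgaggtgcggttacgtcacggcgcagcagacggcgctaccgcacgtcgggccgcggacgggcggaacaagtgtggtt

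The promoter of Cox8b held 2 CpG dinucleotides and that of Cox7a1 7, against 19 in Cox8a, 20 in Cox7a2 and 32 in Cycs; the median over members was 21 and that over all 32544 promoters of this length was 7. Of the 31 members with a promoter entry, 12 held CCGGAAG on either strand, against 8.91% of all promoters, and Cox8a held it at 2 places, both as CTTCCGG. GCATGCGC was in 3 members (Cmc2, Cox6a1 and Cycs; 2.73% of all promoters), AAGATGG, a core of the YY1 site, in 3 (Cox10, Cox20 and Cox7c; 6.37% of all), and AAGGTCA, the half-site of the estrogen-related receptors, in none (4.71% of all). Of the 6 members that rose, Cox14 and Cycs held 1 of these motifs each and the other 4 held none. These are matches of letters within the window.

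Isoform use was read as the ratio of counts of the tissue isoform to the ubiquitous isoform within each library, which needs no scaling between libraries. None of the 5 ratios passed the exact two-sided permutation test between the groups. Cox7a1 made up 32.8% to 40.6% of the counts of its pair in WT and 30.3% to 41.6% in Cd36KO, with a difference in log2 ratio of -0.08 (SE 0.18; exact permutation p = 0.714). Cox8b made up 46.5% to 69.3% of its pair in WT and 57.8% to 68.0% in Cd36KO (difference 0.24, SE 0.31; exact permutation p = 0.543). These shares are of counts and were not corrected for transcript length. In the remaining pairs the ubiquitous isoform held most of the counts. Cox6a2 was 0.136% to 18.1% of its pair in WT and 0.0126% to 2.24% in Cd36KO, a difference in log2 ratio of -4.16 (SE 2.11; exact permutation p = 0.0857). Cox4i2, the hypoxia-responsive isoform best known from lung, was 0.0280% to 0.172% of its pair in WT and 0.0812% to 0.196% in Cd36KO (exact permutation p = 0.514). Cox6b2, the testis isoform, was 0.263% to 0.792% in WT and 0.476% to 1.19% in Cd36KO (exact permutation p = 0.429). After Benjamini-Hochberg adjustment over the 5 pairs, the lowest p was 0.429, for Cox6a2 and Cox6a1.

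**Figure D3:**
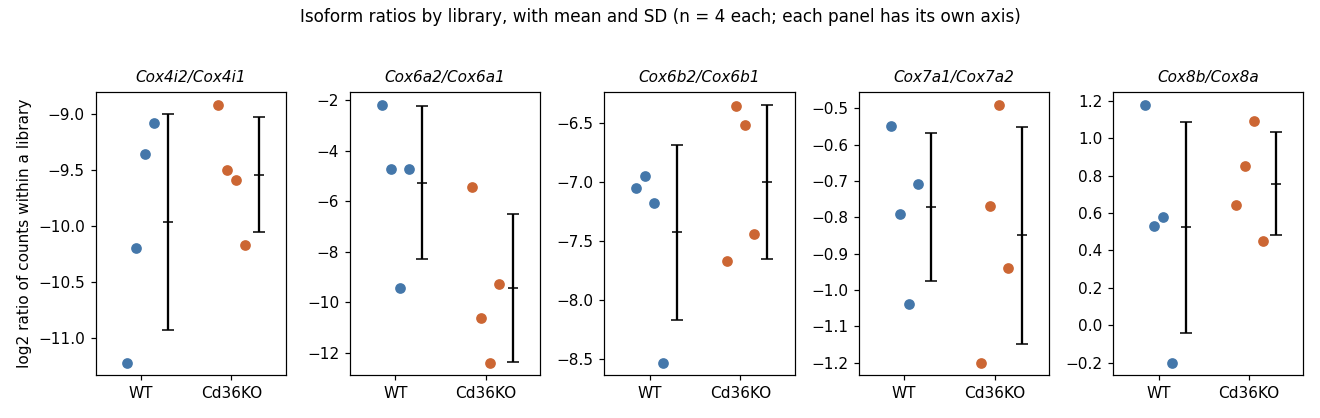
Log2 ratio of the counts of the tissue isoform to the ubiquitous isoform (y axis, a scale of its own in each panel) in 4 WT and 4 Cd36KO libraries for 5 isoform pairs; points are libraries and bars mean and SD. The groups overlap in every panel, and Cox6a2/Cox6a1 covers the widest range, from -2.18 in WT 1 to -12.38 in Cd36KO 3.

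Cox6a2, the heart and skeletal muscle isoform of its subunit, had the largest fold change of all members, but its values followed the muscle markers of each library. It held 1148, 250, 9.41 and 347 normalized counts in WT 1 to 4 and 232, 4.603, 1.02 and 16.8 in the unnumbered Cd36KO library and Cd36KO 2 to 4. The groups overlapped, since the unnumbered Cd36KO library exceeded WT 3. The log2 fold change was -2.79 (SE 1.61) and did not pass the test (DESeq2 adjusted p = 0.409). None of the 18 muscle markers passed in DESeq2 either, with 10 at an unadjusted p under 0.05 (15 of 17 in edgeR), and their median log2 fold change was -3.10. With the mean log2 CPM of 17 of the 18 muscle markers as a covariate, the log2 fold change of Cox6a2 was 0.09 (DESeq2 adjusted p = 0.944). Without the unnumbered Cd36KO library it was -5.86 (DESeq2 adjusted p = 0.00926). The ubiquitous Cox6a1 held 5193, 6624, 6933 and 9224 in WT and 10120, 8106, 8151 and 10680 in Cd36KO. Its log2 fold change was 0.41 (SE 0.19, DESeq2 adjusted p = 0.266). That fold change was 0.57 without WT 4 (adjusted p = 0.0182) and 0.29 without WT 1 (adjusted p = 0.519).

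**Figure D4:**
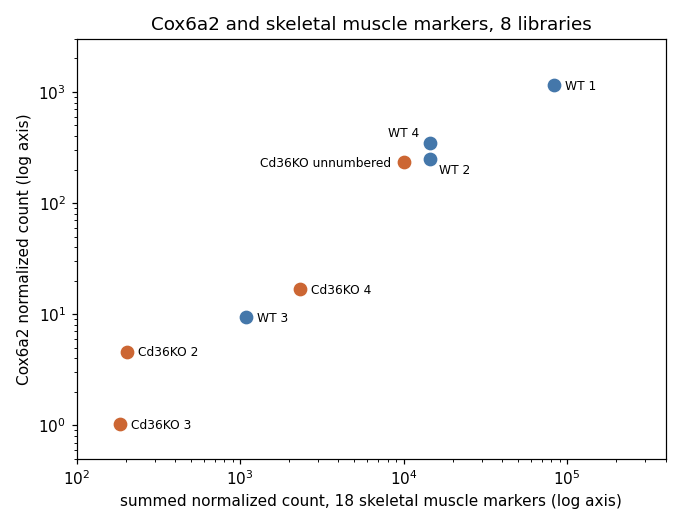
Cox6a2 normalized count (y axis, log scale) against the summed normalized count of 18 skeletal muscle markers (x axis, log scale) in the 4 WT (blue) and 4 Cd36KO (orange) libraries. Libraries with more muscle marker RNA have more Cox6a2 in either group, from 1.02 in Cd36KO 3 to 1148 in WT 1.

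Of the remaining structural subunits, Cox4i1, the ubiquitous isoform of the largest nuclear subunit, held 3226, 4488, 4260 and 4028 normalized counts in WT and 5114, 4591, 5910 and 6568 in Cd36KO. The groups did not overlap, but the DESeq2 adjusted p was 0.0960 (log2 fold change 0.47, SE 0.17). For Cox4i1 the adjusted p was 0.0397 without Cd36KO 2 and 0.21 without WT 1. Its partner Cox4i2 held 0.903, 3.397, 5.88 and 6.92 in WT and 10.03, 5.754, 7.16 and 5.34 in Cd36KO (log2 fold change 0.74, SE 0.74, without an adjusted p). The groups of Cox4i2 overlapped at these few counts. Cox6c, a membrane-spanning subunit, held 6500 to 11720 in WT and 9696 to 15350 in Cd36KO, with a log2 fold change of 0.52 (SE 0.21, DESeq2 adjusted p = 0.151). Cox6c passed without WT 4, without Cd36KO 2 and with the white fat score as a covariate, and in no other fit. Cox5a, a matrix-side subunit, held 1542 to 2993 in WT and 2843 to 3221 in Cd36KO (log2 fold change 0.49, SE 0.19). Cox5b, the zinc-binding subunit, and Cox7b had log2 fold changes of 0.23 (SE 0.16) and 0.31 (SE 0.23), with adjusted p-values of 0.522 and 0.548. Cox6b2, the testis isoform, held 21.7, 28.0, 21.2 and 16.8 in WT and 20.05, 52.9, 49.1 and 27.5 in Cd36KO, with a log2 fold change of 0.76 (SE 0.39, DESeq2 adjusted p = 0.333). Its groups overlapped through the unnumbered Cd36KO library and Cd36KO 4. Its ubiquitous partner Cox6b1 held 2928, 3513, 3162 and 6388 in WT and 4196, 4380, 4553 and 4847 in Cd36KO, with a log2 fold change of 0.17 (SE 0.23, DESeq2 adjusted p = 0.802). WT 4 was above every other library in Cox6b1, and without it the log2 fold change was 0.49 (DESeq2 adjusted p = 0.00745). Without WT 1 the log2 fold change of Cox6b1 was 0.05 (DESeq2 adjusted p = 0.967).

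Cox7c, a small structural subunit, was among the 6 members tested with a log2 fold change below 0. It held 1665, 1714, 775 and 2800 normalized counts in WT 1 to 4 and 470, 1467, 1552 and 2049 in the Cd36KO libraries, so that WT 3 and the unnumbered Cd36KO library were far below the rest of their groups. Cox17, the chaperone that passes copper on to the factors loading complex IV, was low in the same pair of libraries, at 313, 269, 104 and 353 in WT and 66.9, 267, 268 and 280 in Cd36KO. Ndufa4, a small subunit also found in complex IV that is not among the 38 genes and was named after its values were seen, held 732, 705, 369 and 919 in WT and 284, 766, 633 and 659 in Cd36KO. The log2 fold changes of the 3 genes were -0.33 (SE 0.54), -0.24 (SE 0.56) and -0.22 (SE 0.30), and none passed the test. Cmc1, a twin-cysteine protein of complex IV assembly, was the sole member with all Cd36KO values below all WT values, at 96.5 to 115 in WT and 43.4 to 91.0 in Cd36KO (log2 fold change -0.50, SE 0.25, DESeq2 adjusted p = 0.313). Its lowest value was also in the unnumbered Cd36KO library. Cox7a2, Cox10, Cox7a2l and Cox6c were by contrast highest in that library.

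**Figure D5:**
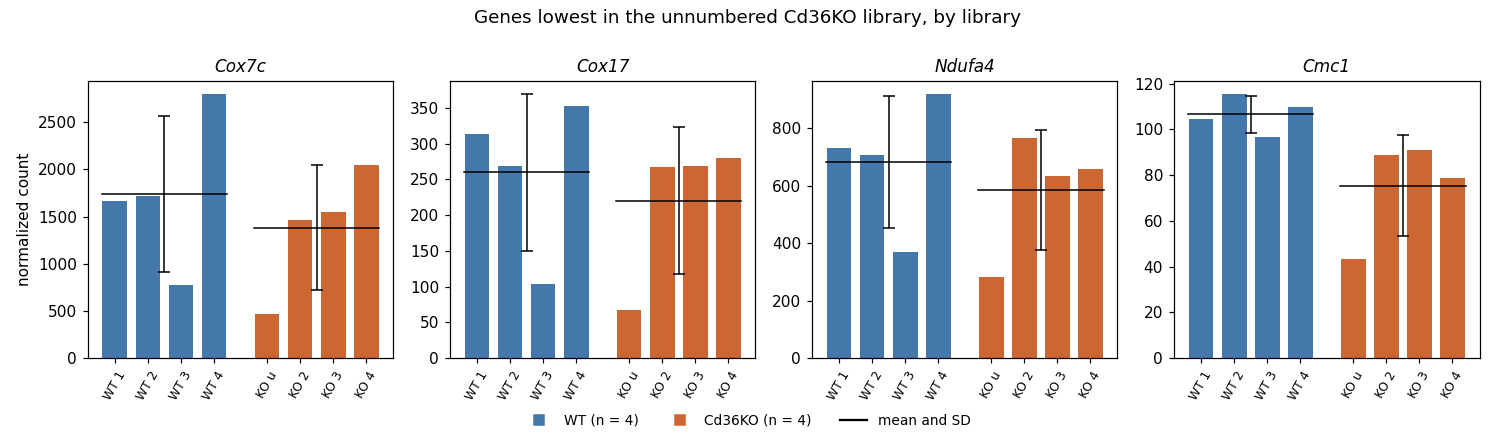
Normalized counts (y axis, from 0, a scale of its own in each panel) of Cox7c, Cox17, Ndufa4 and Cmc1 in the 4 WT and 4 Cd36KO libraries, with mean and SD in black. The unnumbered Cd36KO library (KO u) is the lowest in all 4 panels, and WT 3 is the lowest WT library in each.

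Cox7a2l, the factor that joins complexes III and IV in supercomplexes and a relative of Cox7a1 and Cox7a2, held 690, 889, 835 and 667 normalized counts in WT and 1321, 922, 1109 and 1226 in Cd36KO. The groups did not overlap, with WT 2 and Cd36KO 2 closest to each other. It rose 1.49-fold (95% interval 1.18 to 1.87; DESeq2 adjusted p = 0.0332; 0.0760 without WT 1 and 0.189 without the unnumbered Cd36KO library).

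Around the core subunits the changes were smaller, without a test of that difference. Of the 9 tested members that act in membrane insertion and assembly at this stage, 1 rose, none fell, and the median log2 fold change was 0.14. The gene that rose was Cox14, which binds newly made Cox1. It held 477, 566, 533 and 556 normalized counts in WT and 768, 674, 758 and 702 in Cd36KO. All Cd36KO libraries were above all WT libraries with a narrow spread in each group, and the rise was 1.36-fold (95% interval 1.14 to 1.63; DESeq2 adjusted p = 0.0351; 0.138 without WT 1 and 0.200 without the unnumbered Cd36KO library). Coa3, the partner of Cox14 at the same step, held 189 to 258 in WT and 243 to 363 in Cd36KO and had a log2 fold change of 0.41 (SE 0.18, DESeq2 adjusted p = 0.241). Surf1, whose loss causes complex IV deficiency, was at 89.4 to 158 in WT and 105 to 171 in Cd36KO, a log2 fold change of 0.14 (SE 0.24). Cox18 and Cox20, which handle Cox2 in the membrane, had log2 fold changes of -0.07 and 0.04. Taco1, the activator of Cox1 translation, and Coa7 had 0.27 and 0.40, and Coa5 and Pet100 had 0.12 and 0.10. The adjusted p of each of these 7, Surf1 included, was 0.376 or higher.

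Copper delivery to the core was represented by 8 members, none of which passed the test; the median log2 fold change was 0.38, and 5 had an unadjusted p under 0.05 in DESeq2 and also 5 in edgeR, with Cmc1 the lower one among them in each. Sco1 and Sco2 load copper onto Cox2. Sco1 held 58.7, 51.8, 47.1 and 69.2 normalized counts in WT and 110, 67.9, 91.0 and 80.8 in Cd36KO, with an overlap between WT 4 and Cd36KO 2 and a log2 fold change of 0.62 (SE 0.25, DESeq2 adjusted p = 0.164). Sco2 held 53.3, 51.8, 55.3 and 70.2 in WT and 115, 74.8, 111 and 64.8 in Cd36KO, with a log2 fold change of 0.66 (SE 0.27, DESeq2 adjusted p = 0.169). Cd36KO 4 fell below WT 4. Cmc2, a twin-cysteine protein of the intermembrane space, came closest to the threshold, at 170, 163, 141 and 144 in WT and 221, 212, 210 and 255 in Cd36KO. Its groups did not overlap (log2 fold change 0.54, SE 0.17, DESeq2 adjusted p = 0.0524). Cox19, a copper-handling protein of the same space, had a log2 fold change of 0.49 (SE 0.24), Cox11, which serves the copper site of Cox1, 0.27 (SE 0.34) and Coa6, which works with the Sco proteins, 0.23 (SE 0.42).

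Heme a synthesis was represented by 2 members, neither of which passed the test, with Cox10 at an unadjusted p under 0.05 in DESeq2 and edgeR. Cox10, which makes the precursor heme o, held 426, 372, 485 and 485 normalized counts in WT and 859, 505, 635 and 541 in Cd36KO. The groups did not overlap, but the log2 fold change of 0.52 (SE 0.20) missed the threshold (DESeq2 adjusted p = 0.134). Cox15, which turns heme o into heme a, was measured at 16.2 to 40.6 in WT and 18.4 to 33.6 in Cd36KO, and its log2 fold change was -0.14 (SE 0.41, DESeq2 adjusted p = 0.919).

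A wider list of nuclear genes around complex IV, for accessory subunits, assembly, mitochondrial RNA handling and the supply of copper and heme, also had a median above 0. Of the 30 genes listed, 29 were in the table and 23 were tested; 3 rose and none fell, with a median log2 fold change of 0.33. The 3 were Tmem177, which stabilises Cox20 and newly made Cox2 (1.94-fold, 95% interval 1.30 to 2.88; DESeq2 adjusted p = 0.0422), Ccs, the copper chaperone of superoxide dismutase (1.65-fold, 1.28 to 2.13; adjusted p = 0.0111), and Chchd7, a twin-cysteine protein of the intermembrane space (1.58-fold, 1.24 to 2.02; adjusted p = 0.0178). Tmem177 held 29.7 to 39.1 normalized counts in WT and 54.2 to 93.6 in Cd36KO. Without WT 2, without WT 3, without the unnumbered Cd36KO library, or in edgeR, none of the 23 passed, with 7 at an unadjusted p under 0.05 in edgeR. The 3 core subunits of the mitochondrial genome did not pass the test, and 0 had an unadjusted p under 0.05 in DESeq2 or edgeR. mt-Co1, the catalytic subunit, held 10700 to 17780 in WT and 8250 to 13530 in Cd36KO (log2 fold change -0.25, SE 0.20). mt-Co2 and mt-Co3 had log2 fold changes of 0.29 (SE 0.23) and 0.46 (SE 0.25), with DESeq2 adjusted p-values of 0.596 and 0.359. Mean normalized counts in WT and Cd36KO were 116 and 142 for mt-Co2 and 177 and 243 for mt-Co3. Those of mt-Co1 were far higher, at 13000 and 10910. The reason for this gap was not tested, and the 3 genes were not equally well measured.

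The same direction was found in the other respiratory complexes, which were read for comparison without a test of the difference. Of 36 complex I subunit genes tested, 7 rose with a median log2 fold change of 0.40, and of 31 genes of complexes II, III and V, 9 rose and 1 fell with a median of 0.43. These calls are from DESeq2, and edgeR and limma called 0 genes of either list, with 18 of each list at an unadjusted p under 0.05 in edgeR. Complex IV, at 6 of 35 and a median of 0.40, was near these values. Transcript length moved with fold change over the 9428 tested protein-coding genes that have a transcript length. The median log2 fold change of the other genes was 0.11 for transcripts of up to 600 nucleotides, 0.07 for those above 600 and up to 800 nucleotides and -0.09 for those above 3000 nucleotides. Of the members, 10, 9 and 4 fell in these classes. The part of length in the members' median of 0.40 was not tested.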

How the data were processed

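Bulk digital mRNA-seq of BAT was measured in 4 WT and 4 Cd36KO libraries of single-end reads, grouped by the genotype label. According to the study's methods the authors trimmed reads with bbduk, aligned with STAR and made gene counts with HTSeq-count, whereas the submitters' processing notes name Trimmomatic, HISAT2 and DESeq2 on GRCm38/mm10. Strand setting, annotation release and use of molecular identifiers are not given in the sources used here. The deposited counts are whole numbers per gene and not normalized. The authors' second deposited table is on the log2 scale, and its values equal log2(normalized count + 1) to within 5e-14 and were used in 1 alternative.

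Symbols and exons came from GENCODE M21 (GRCm38), which matched 30934 of 31053 identifiers; the 119 unmatched held 3959 counts. The study's methods name DESeq2 for differential expression; here its Wald test (version 1.42.0) was run on all genes in R 4.3.3 with its default size factors and filters, and p-values were adjusted after Benjamini and Hochberg (threshold 0.05). Alternatives were edgeR 4.0.16 (quasi-likelihood, TMM), limma 3.58.1, TMM factors, a filter of 10 counts in 4 libraries, no independent filtering, the replicate block, each library left out and marker-score covariates; total-count scaling and the removal of the most muscle-rich library of each group were added after seeing the data. Isoform ratios (0.5 added to each count) were tested by exact two-sided permutation over 70 arrangements, whose smallest p is 0.0286 (SciPy 1.17.1). Normalized counts are counts divided by size factors, values after ± are SDs, and intervals are 95% Wald intervals. The DESeq2, edgeR and limma fits were tested on simulated counts, and the permutation function was checked against SciPy on random values. Promoters came from RefSeq (GRCm38.p6) and matched 31 of 38 members.

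Full values are given for members that passed, both genes of each isoform pair, and the 3 further members with the largest absolute log2 fold change at a mean normalized count of at least 50. Outside the members, full values are given for Cd36. The mitochondrially encoded subunits, the further complex IV genes that passed and the marker genes are given with fewer values. Other genes were named after their values were seen. The members and lists were chosen with earlier results of these data known. The precision of low counts is limited by total counts of 2679785 to 4097953 per library.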

Additional observations from a re-analysis of the deposited data

Results flagged for a closer look

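The log2 ratio of Cox6b2 to Cox6b1 in WT 4 was -8.53, whereas the other 3 WT libraries lay between -7.18 and -6.95. It stood out because its gap to the nearest WT library was 0.854 of the range of the group, above the critical value of Dixon's test for 4 samples. In the same library Cox6b1 was at its highest value of all 8 libraries (6388 normalized counts) and Cox6b2 at its lowest (16.8). Of the 42 groups of 4 values examined in this way 1 stood out, and chance alone would give about 2.1.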

How the results depend on the processing

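The number of complex IV members called, 6 in DESeq2 (284 genes in all), was 0 with edgeR (14 in all) and with limma on the authors' log2 values (8), 2 without independent filtering (171), 1 with the muscle score as a covariate (Cycs; 182), 3 with total-count scaling (282) and 0 without the most muscle-rich library of each group (262). It stayed at 6 with TMM factors (290), was 4 with the filter of 10 counts (276) and was 8 with the white fat score as a covariate (632), of which 4 were among the main 6; the all-gene median of that fit was 0.10. All of these calls were rises. The white fat score set WT 2 to 4 apart from the Cd36KO libraries, so the genotype term of that fit depends heavily on WT 1. The further listed genes called, 3 in DESeq2, numbered 0 in edgeR, limma, the fit with the muscle score and the fit without the most muscle-rich libraries, and 6 with the white fat score. Leaving out each library in turn gave 1 to 13 members called (1 to 13 higher, 0 to 1 lower, the latter Cox6a2), 0 to 6 further genes, 9 to 19 members whose groups do not overlap (10.4% to 18.6% of all genes tested, against 8.77% with 8 libraries), and a median of 0.33 to 0.49. The 13, the 19 and the 18.6% came without WT 4, and the single call without WT 3. Without WT 2, Cd36KO 3 or Cd36KO 4, 2 members were called (70, 133 and 125 genes in all), and without Cd36KO 2, 6 (278). The median of the members was 0.66 with the white fat score and between 0.30 and 0.40 in the other fits, single left-out libraries aside. Cycs passed in 14 of 18 alternatives, with adjusted p-values of 0.00165 to 0.185, and the other 5 called members in 2 to 7 of 18, with adjusted p-values of 0.000156 to 0.76.

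The shared replicate numbers 2, 3 and 4 were examined for pairing; the deviations of same-numbered libraries correlated at -0.06, 0.23 and 0.10, so they share a number and nothing shows that they pair. The replicate block over these 3 pairs gave 1 member called, with 0 higher and 1 lower (Cox6a2; 221 genes in all), and 0 further genes. It holds the 6 libraries left without the most muscle-rich pair, in which the fit without a block already called 0 members and 0 further genes. Under the block the ratio Cox4i2/Cox4i1 turned to -0.20 and Cox7a1/Cox7a2 to 0.11. The latter was 0.04 without the unnumbered Cd36KO library, and Cox8b/Cox8a was -0.0024 without WT 4. The ratios ranged over 0.01 to 0.72 (Cox4i2/Cox4i1), -5.55 to -3.13 (Cox6a2/Cox6a1), 0.06 to 0.65 (Cox6b2/Cox6b1), -0.20 to 0.04 (Cox7a1/Cox7a2) and -0.0024 to 0.46 (Cox8b/Cox8a) when single libraries were left out, and none passed. Cox6a2 turned to 0.09 with the muscle score and Cox8a to -0.06 without the most muscle-rich libraries. The cause of these changes was not tested, except that fits without libraries hold fewer samples. Total-count scaling moved the median of all genes to -0.07.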
